A study of Mus musculus with 4 samples.

Results

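Genes of Wnt signalling were followed in the accessible chromatin of the mouse limb bud: Wnt3, Wnt5a, Rspo2, Ror2, Dkk1, Ctnnb1, Axin2, Lef1, Tcf7 and Tcf7l1. They are 10 of the 22350 protein-coding genes annotated on the autosomes and X of the mm9 build, and were chosen by name, as ligands, a receptor, an inhibitor, cytoplasmic components and nuclear factors of the pathway. For each gene, accessible sites were taken within 1 kb of an annotated start and within 50 kb of the gene body. ATAC-seq was used, in which the Tn5 transposase cuts and tags open DNA. Limbs were dissected from mouse embryos at embryonic day E11.5, fore- and hindlimb are named together as the tissue, and the cells were dissociated with trypsin and fixed with PFA before transposition. The strain of all embryos is given as c57bl6.J X 129S6.sv. Of the 4 libraries, 2 came from mutants with an inserted stop cassette, called 3xpA in the sample titles, and 2 from wild-type embryos. By its title the series deals with loss of the lncRNA Maenli and with engrailed-1. The labels used here do not give the position of the cassette, the zygosity of the mutants or the number of embryos per library. A library averages all limb cells, so fewer open cells and less opening per cell cannot be told apart.

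Wnt proteins are secreted signals. In the canonical branch they act through Frizzled and LRP receptors to stop the destruction of beta-catenin, which then works in the nucleus with TCF and LEF factors; Axin2, Lef1, Tcf7 and Dkk1 are themselves familiar transcriptional targets of this branch. In the limb bud, canonical signalling in the ectoderm takes part in forming the apical ridge and dorsoventral pattern, and Wnt5a with its receptor Ror2 guides outgrowth of the mesenchyme through a branch that does not need beta-catenin.

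Each library is represented by a list of summits, the 1 bp positions of highest signal in each called peak, with a score that behaves as the −log10 of a q-value. The stop cassette lists held 79083 summits in replicate 1 and 107827 in replicate 2, and the wild-type lists 51701 and 68471. Scores depend on depth, which the lists do not give, so each score was ranked as a percentile within its own list, with 100 for the strongest summit. A gene was given the percentile of its best summit within 1 kb of any of its starts, and 0 where a list held none. Peak names in the wild-type lists carry a single replicate number with sub-numbers, whereas those of the stop cassette lists carry separate numbers. No label states that the libraries of a genotype came from separate embryos, so a p-value here measures only the spread between these lists, which may be technical. With 2 lists against 2 there are 6 assignments, and the smallest p that the exact two-sided permutation test allows is 0.333.

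The tissue was checked against marker genes. The 4 limb mesenchyme markers Prrx1, Twist1, Msx1 and Hoxd13 had a summit at a start in all 4 lists. The forelimb marker Tbx5 had none in any list, whereas the hindlimb markers Pitx1 and Tbx4 had one in 4 and 3 lists. The 3 liver markers Alb, Apoa2 and Ttr were at 0 in every list. The neural markers Neurod1 and Neurog1 each had a start summit in 3 lists, with percentiles of 0 and 72.1 in the stop cassette lists and 54.7 and 67.0 in the wild-type lists for Neurod1, and of 0, 16.9, 0.430 and 28.0 in the same order for Neurog1. Of the limb ectoderm markers, Krt5 was at 0 in every list, Fgf8 and Trp63 had a summit in stop cassette replicate 2 alone, and Sp8 in 3 lists.

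Sequences are shown first for the starts at which the letters CTTTGAT occurred, since this word and its reverse complement ATCAAAG are the common core of sites bound by TCF and LEF factors, the products of 3 of the 10 genes. All sequences were read from the NCBIM37 (mm9) reference, 5′ to 3′. Capitals mark CTTTGAT, the shorter CTTTG that it contains, the reverse complements of both, and TAATTA, a word shared by many homeodomain factors. The first sequence is the 200 bases before the first annotated start of Tcf7 (chr11:52096682-52096881, minus strand), where the strongest Tcf7 summit of each stop cassette list lay. The 3 shorter ones are 30-base sites on the plus strand in the start regions of Axin2 (chr11:108781730-108781759 and chr11:108782535-108782564) and Ctnnb1 (chr9:120843750-120843779).

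Tcf7 upstream: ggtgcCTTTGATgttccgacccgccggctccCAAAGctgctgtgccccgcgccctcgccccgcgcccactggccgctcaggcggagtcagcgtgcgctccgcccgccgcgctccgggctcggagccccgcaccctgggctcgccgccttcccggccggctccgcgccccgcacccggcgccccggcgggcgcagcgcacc

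Axin2 first site: agccggctgcgCTTTGATaaggtcctggca

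Axin2 second site: cggccggcgcgCTTTGATgtgcggggcggc

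Ctnnb1 site: ggcagCTTTGcCTTTGATaaagtctgcctc

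The Tcf7 word lay 192 bp before the first start, the Axin2 words 81 and 886 bp after the first Axin2 start, and the Ctnnb1 word 828 bp after its nearest annotated start. For each gene, summits of the 4 lists were extended by 250 bp on each side and merged into regions. Of the 8 start regions of the 10 genes that all 4 lists held, 3 contained the word (37.5%), with 4 matches, or 0.369 per kb. Among all 13237 regions near a start that all 4 lists held, 10.3% contained it, at 0.0843 per kb. The start regions of Lef1, Tcf7l1, Ror2, Rspo2 and Dkk1 held by all lists did not contain these letters. Matches are a description of the letters and no evidence of binding.

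For contrast, the 200 bases before the single start of Wnt3 (chr11:103635264-103635463, plus strand) are shown, a start with hardly any accessibility signal.

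Wnt3 upstream: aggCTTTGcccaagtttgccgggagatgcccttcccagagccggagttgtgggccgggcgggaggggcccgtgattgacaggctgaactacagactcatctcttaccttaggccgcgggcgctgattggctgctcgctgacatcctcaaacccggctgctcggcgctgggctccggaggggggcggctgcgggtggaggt

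The starts of the 10 genes fell into a group with little signal and a group with open chromatin. The Wnt3 start had no summit in 3 of the 4 lists and the Wnt5a start none in 2, whereas those of the other 8 genes were held by all 4. In stop cassette replicates 1 and 2, 8 and 9 of the 10 genes had a summit at a start, and in wild-type replicates 1 and 2, 8 and 10 had one. The share among all coding genes was 61.6%, 64.5%, 59.1% and 61.6% in the same order. For all 4 lists together it was 8 of 10 genes against 57.5% of coding genes. The mean number held was 8.5 in the stop cassette lists and 9 in the wild-type lists, a difference of -0.5 (exact permutation test, p = 1), and the groups overlapped.

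**Figure D1:**
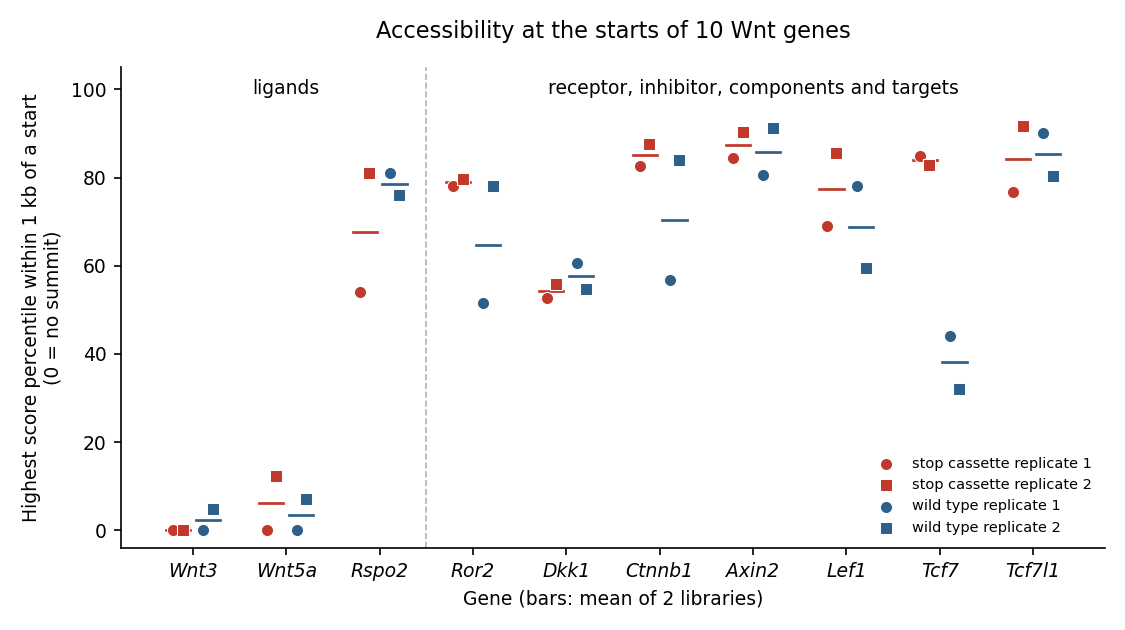
Percentile of the best summit within 1 kb of a start, for each of the 10 genes (horizontal axis) in the 4 libraries (vertical axis, percentile within the library's own list, 0 where no summit was found). Points are libraries and bars the mean of the 2 libraries of a genotype. Wnt3 and Wnt5a do not exceed 12.4 in any library, and Tcf7 has the widest gap between genotypes, with means of 84.0 and 38.1.

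Wnt3, a canonical ligand used by the limb ectoderm (ENSMUSG00000000125.5, chr11:103635464-103679271, plus strand), had no start summit in 3 lists. In wild-type replicate 2 a single summit lay 538 bp before the start, with a score of 2.52 and a percentile of 4.77. That summit was among the weakest of its list.

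Wnt5a, the main non-canonical ligand of limb outgrowth (ENSMUSG00000021994.8, chr14:29317936-29340633, plus strand), was at 0 in replicate 1 of both genotypes. It stood at the 12.4 percentile in stop cassette replicate 2 and the 7.06 percentile in wild-type replicate 2, with scores of 3.25 and 2.61. Those summits lay 117 and 82 bp before an annotated start at position 29319086. Each genotype had 1 list with a weak summit and 1 without.

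Rspo2 encodes an R-spondin, a secreted protein that keeps Wnt receptors on the cell surface, and is counted here with the ligands (ENSMUSG00000051920.6, chr15:42852357-43002364, minus strand). Its percentiles were 54.1 and 81.1 in the stop cassette lists and 80.9 and 76.0 in the wild-type lists. It was the only ligand of the 3 with an open start in every list. The best summits lay 147, 434 and 211 bp after and, in wild-type replicate 2, 43 bp before the start. The difference between means was -10.9, and without stop cassette replicate 1 it was 2.67. With all lists cut to the 51701 strongest summits the percentiles were 29.7 and 60.6 in the stop cassette lists. In the wild-type lists they were then 80.9 and 68.2. The difference was -29.4 and the groups did not overlap, a direction that 19.5% of coding genes shared at that length.

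The weak starts of Wnt3 and Wnt5a were not poor in CpG. In the 500 bases around the start, the ratio of observed to expected CpG was 0.721 for Wnt3, 1.13 for Wnt5a and 0.724 for Rspo2 (for genes with several starts, the start with the highest ratio). Of 12327 coding genes with a ratio of at least 0.6, 90.8% had a start summit in all 4 lists and 3.36% in none. Wnt3 and Wnt5a were thus outside the usual class for their base composition, with a summit in 1 and 2 lists. Dkk1 stood on the other side, with a ratio of 0.365 and a summit in all 4 lists, which 16.6% of the 10023 genes under 0.6 shared. The other 6 genes had ratios between 0.813 and 1.20 and summits in all 4 lists.

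Ror2 encodes the receptor tyrosine kinase through which Wnt5a acts (ENSMUSG00000021464.8, chr13:53204681-53381493, minus strand). Its start percentiles were 78.2 and 79.7 in the stop cassette lists and 51.6 and 78.1 in the wild-type lists, with summits 35 to 143 bp before the first start. The groups did not overlap, but wild-type replicate 2 lay just below the stop cassette lists. The means were 79.0 ± 1.10 and 64.8 ± 18.7 (SD, n = 2 each), a difference of 14.1 (exact permutation test, p = 0.333, and 0.764 after Benjamini-Hochberg adjustment over 14645 coding genes). Without wild-type replicate 1 the difference was 0.904. With all lists cut to the 51701 strongest summits it was 0.934, and the groups overlapped.

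Dkk1 encodes a secreted inhibitor that binds LRP receptors (ENSMUSG00000024868.8, chr19:30620353-30624155, minus strand). With the lists as deposited, its percentiles of 52.6, 55.8, 60.7 and 54.6 were the most even of the open starts. The stop cassette and wild-type means of 54.2 and 57.7 differed by -3.44 (exact permutation test, p = 0.667), and the groups overlapped. With all lists cut to the 51701 strongest summits the percentiles were 27.5 and 7.87 in the stop cassette lists. In the wild-type lists they were then 60.7 and 39.9, and the groups did not overlap, a direction that 19.5% of coding genes shared at that length. A summit 94 to 129 bp after the start was present in all 4 lists. A second one 755 bp or more after it was present in 3 lists, and was the best one in stop cassette replicate 2.

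Ctnnb1 encodes beta-catenin (ENSMUSG00000006932.9, chr9:120838334-120869625, plus strand). Of its 13 annotated starts, those in a cluster about 4 kb into the gene carried the summits. The percentiles were 82.7 and 87.6 in the stop cassette lists and 56.8 and 84.1 in the wild-type lists. Wild-type replicate 1 was low, and wild-type replicate 2 lay between the stop cassette lists. The means of 85.1 and 70.4 differed by 14.7 (exact permutation test, p = 0.667), and without wild-type replicate 1 by 1.04.

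Axin2 encodes a scaffold of the beta-catenin destruction complex and is the standard readout of canonical signalling (ENSMUSG00000000142.9, chr11:108781663-108812097, plus strand). Its percentiles were 84.5 and 90.4 in the stop cassette lists and 80.7 and 91.2 in the wild-type lists. The best summit lay 38 to 53 bp after the first start in all 4 lists, and 2 lists placed it at the same base. Further summits lay 400 to 511 bp and 777 to 848 bp after that start in every list, so the arrangement of the whole start region was shared. The second Axin2 site printed above lies just beyond the third of these positions. The means of 87.4 ± 4.17 and 85.9 ± 7.40 (SD, n = 2 each) differed by 1.49 (exact permutation test, p = 1).

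Lef1 encodes a nuclear partner of beta-catenin (ENSMUSG00000027985.8, chr3:130813389-130927274, plus strand). Its percentiles were 69.1 and 85.6 in the stop cassette lists and 78.1 and 59.5 in the wild-type lists. In every list the best summit lay not at the first start but 268 to 336 bp before a later start at position 130815715, within an intron of the gene. The means of 77.3 and 68.8 differed by 8.54 (exact permutation test, p = 0.667), and the groups overlapped. Leaving out stop cassette replicate 2 gave a difference of 0.283, and leaving out wild-type replicate 2 gave -0.778.

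Tcf7l1 encodes a TCF factor known mostly as a repressor (ENSMUSG00000055799.6, chr6:72576372-72739248, minus strand). Its percentiles were 76.7 and 91.7 in the stop cassette lists and 90.2 and 80.4 in the wild-type lists. The groups overlapped, and the means of 84.2 and 85.3 differed by -1.08 (exact permutation test, p = 1).

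Tcf7 encodes TCF1, a nuclear partner of beta-catenin (ENSMUSG00000000782.8, chr11:52065873-52096681, minus strand), and its start differed most between genotypes among the 10. Its percentiles were 85.0 and 82.9 in the stop cassette lists and 44.2 and 32.0 in the wild-type lists, with scores of 18.4, 13.3, 4.95 and 4.40. Both stop cassette lists were far above both wild-type lists. The means were 84.0 ± 1.49 and 38.1 ± 8.61 (SD, n = 2 each), a difference of 45.9 (exact permutation test, p = 0.333, and 0.764 after Benjamini-Hochberg adjustment over 14645 coding genes). Leaving out each library in turn gave differences from 39.8 to 52.0. With all lists at the equal length of 51701 summits the percentiles were 77.1, 64.3, 44.2 and 9.93, a difference of 43.6, and the groups still did not overlap. Among the 14645 coding genes with a start summit in at least 1 list, the difference of Tcf7 stood at the 98.3 percentile. Among the 12860 with a start summit in all 4 lists, 62 had a difference of at least 45.9, which put Tcf7 at the 99.5 percentile. At equal length Tcf7 stood at the 99.9 percentile of the genes with a start summit in all 4 lists.

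Markers of other cell types that separated the genotypes in the same direction are given beside this result. Of the 15 markers with a start summit in at least 1 list, 3 were higher in both stop cassette lists (20%, beside 39.7% of coding genes) and 0 lower (beside 3.99%), so this share was not above the background. Gata1, a blood factor, had percentiles of 74.5 and 56.4 in the stop cassette lists and 10.4 and 26.0 in the wild-type lists. Kdr, an endothelial receptor, had 82.2 and 90.3 against 70.2 and 81.7, and Pax3, of muscle precursors, 24.2 and 40.9 against 0 and 0. Myod1, the other muscle precursor marker, overlapped, with 0 and 81.2 against 42.7 and 60.9. The defining markers Ptprc and Hba-a1 of blood and Cdh5 and Pecam1 of endothelium were at 0 in every list. The part of such cells in the Tcf7 difference was not tested, nor that of the greater length of both stop cassette lists beyond the equal-length values above.

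The place of the best Tcf7 summit was nearly the same in both stop cassette lists, but differed between the 2 wild-type lists. Both stop cassette lists had their strongest summit 141 and 150 bp before the first start, within the 200 bases printed above, and weaker ones at 149 to 404 bp after it with percentiles from 15.2 to 45.6. In wild-type replicate 1 a summit at the same place, 134 bp before the start, had a percentile of 20.1, and the best one lay 51 bp after the start. In wild-type replicate 2 the best summit lay 93 bp before the start, and others at 294 bp before and 61 bp after it had percentiles of 17.6 and 17.3. Both wild-type lists thus had a summit 51 to 61 bp after the start, but it was the best one only in replicate 1. In each wild-type list the best summit was no higher than the 44.2 percentile, close to the 45.6 of the highest secondary summit in the stop cassette lists. The region of all these summits (chr11:52096027-52097225) also overlaps an intron of the annotated gene A630014C17Rik, and a summit cannot be assigned to one of the genes.

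**Figure D2:**
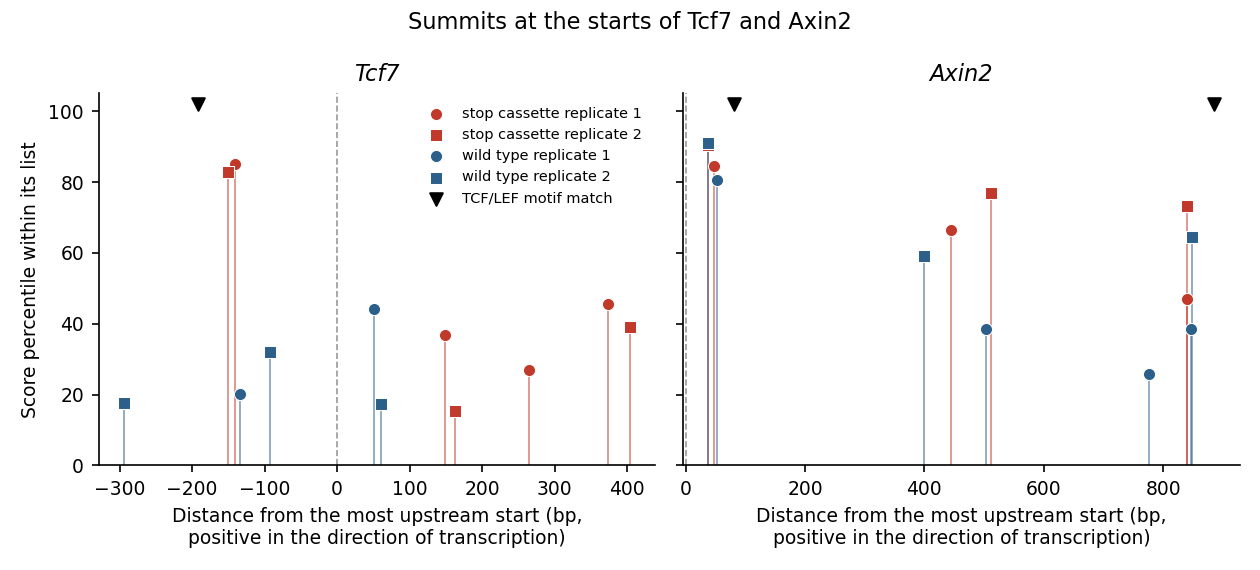
Every summit within 1 kb of a start of Tcf7 (left) and Axin2 (right), by distance from the most upstream start (horizontal axis, bp, positive in the direction of transcription) and percentile within its list (vertical axis). Colours are genotypes, marker shapes replicates, and black triangles the CTTTGAT matches at 192 bp before the Tcf7 start and 81 and 886 bp after the Axin2 start. The best Axin2 summits of the 4 libraries lie between 38 and 53 bp after the start, whereas at Tcf7 the stop cassette summits at 141 and 150 bp before the start stand above all others.

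Of the 10 starts, 2 were higher in both stop cassette lists than in both wild-type lists, Ror2 and Tcf7. This happened at 39.7% of the 14645 coding genes with a start summit in at least 1 list, so the share among the 10 was not above the background. Among the 12860 genes with a start summit in every list the share was 41.2%, beside 2 of 8 here. None of the 10 was lower in both, against 3.99% of coding genes. At equal length the higher and lower shares among coding genes were 19.1% and 19.5%. There, Tcf7 was the 1 gene of the 10 that was higher, while Rspo2, Dkk1 and Axin2 were lower, with differences of -29.4, -32.6 and -6.42. The median difference over the 10 genes was 2.07, beside 3.84 over the coding genes. No coding gene had an adjusted exact permutation p under 0.05 (0 of 14645, or 0%), which this design cannot reach; the smallest was 0.764, and the smallest unadjusted p was 0.333.

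The median percentile over the 10 starts was 72.9 and 82.0 in the stop cassette lists and 58.7 and 67.7 in the wild-type lists. Both stop cassette values were above both wild-type values, with means of 77.4 and 63.2 (difference 14.2, exact permutation test, p = 0.333). The medians over all coding genes were 68.4 and 81.2 in the stop cassette lists and 56.9 and 70.1 in the wild-type lists. These coding gene medians count genes without a start summit as 0. On that measure the 10 genes lay close to the coding genes of the same list, above them in 3 lists and below them in wild-type replicate 2. Among the 14645 coding genes with a start summit in at least 1 list, each of the 10 ranked below the median by its mean over the 4 lists. The ranks ran from the 0.396 percentile for Wnt3 to the 47.2 percentile for Axin2, with Tcf7 at 20.2 and Ror2 at 26.7. At equal length the difference between genotypes in the median over the 10 starts was 2.51.

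Ligands were set beside the rest of the pathway. The median of the 3 ligand starts was 0 and 12.4 in the stop cassette lists and 0 and 7.06 in the wild-type lists, and that of the 7 other starts was 78.2, 85.6, 60.7 and 78.1. The ligands were lower by 78.2 and 73.2 percentiles in the stop cassette lists and by 60.7 and 71.0 in the wild-type lists. The sign was the same in every list, and with 3 genes on one side it follows from Wnt3 and Wnt5a. With Rspo2 as the only ligand, over the 8 genes with a summit in all lists, the mean gap was -14.3 in the stop cassette and 9.07 in the wild-type lists. The mean gap was -75.7 in the stop cassette and -65.8 in the wild-type lists, a difference of -9.85 (exact permutation test, p = 0.333). At equal length this difference was -2.45, without wild-type replicate 1 it was -4.69 and without wild-type replicate 2 it was -15.0.

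The wider pathway was described with 7 lists that hold 85 different genes. Of these, 64 had a start summit in all 4 lists (75.3%, against 57.5% of coding genes) and 11 in none. Among 19 Wnt ligands, 7 had a start summit in all lists and 6 in none (Wnt1, Wnt6, Wnt7b, Wnt8a, Wnt8b and Wnt10a), and the median of the mean percentiles was 9.05. Wnt4, Wnt16 and Wnt2 stood highest in that list. Wnt3 and Wnt5a, with means of 1.19 and 4.86, lay below that median and above the 6 ligands with no summit.

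Genes that receive and relay the signal were more often open. All 12 cytoplasmic components had a start summit in all 4 lists, with a median of 92.1, led by Btrc, Axin1 and Csnk1a1. In that list Ctnnb1 and Axin2 were below the median. Of 15 receptors, 14 were held in all lists (median 82.9), led by Fzd4, Lrp6 and Fzd7, and Ror2 stood below that median. Of 9 R-spondins and their receptors and ubiquitin ligases, 7 were held in all lists (median 62.9), led by Lgr4, Znrf3 and Lgr5, and Rspo1 was in none.

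Of 12 nuclear factors, 11 had a start summit in all lists (median 77.5), led by Tle1, Pygo2 and Tle4. Of 13 secreted inhibitors, 9 had one in all lists and Dkk4, Sfrp5 and Sost in none (median 49.0). Wif1, Sfrp2 and Sfrp1 led the inhibitors, and Dkk1 stood above their median. Of 13 genes known as Wnt targets, 12 had one in all lists (median 73.0), led by Znrf3, Axin2 and Nkd1, and Sp5 had none.

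Between genotypes, the pathway genes did not stand above the coding genes. Of the 74 with a start summit in at least 1 list, 23 were higher in both stop cassette lists (31.1%, beside 39.7% of coding genes) and 3 were lower in both (4.05%, beside 3.99%). Among the 13 targets, 4 were higher (Tcf7, Nkd2, Rnf43 and Znrf3) and 0 lower. Rnf43 had a wide gap like that of Tcf7, with 86.0 and 82.0 in the stop cassette lists and 46.6 and 36.9 in the wild-type lists.

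**Figure D3:**
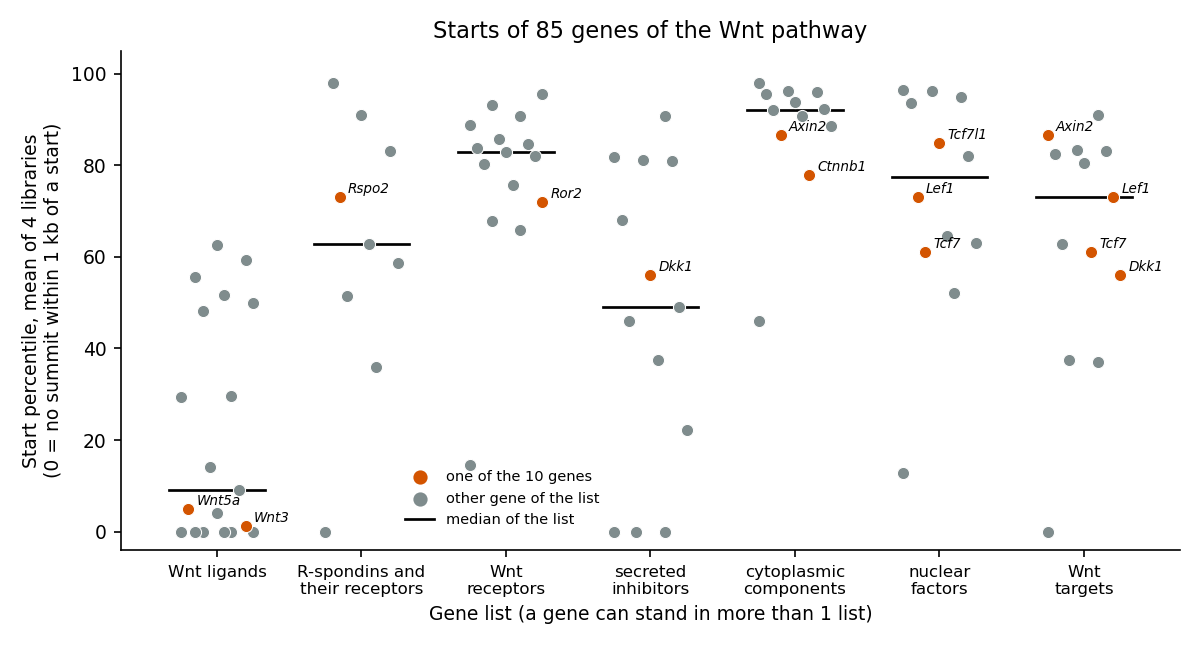
Mean start percentile over the 4 libraries (vertical axis, 0 where no list held a summit within 1 kb of a start) for 85 genes in 7 lists of the Wnt pathway (horizontal axis). Orange points are the 10 genes, grey points the other genes, and black lines the medians of the lists, which run from 9.05 for the ligands to 92.1 for the cytoplasmic components.

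The neighbourhoods of the 10 genes, each the gene body with 50 kb on both sides, held 95 and 162 summits in the stop cassette lists and 74 and 101 in the wild-type lists. These were 0.120% and 0.150% of the stop cassette lists and 0.143% and 0.148% of the wild-type lists. The groups overlapped, and the means of 0.135% and 0.145% differed by -0.0101 percentage points (exact permutation test, p = 1). Without stop cassette replicate 1 the sign turned, to 0.00492. Per 100 kb, the median of the 10 neighbourhoods was 5.56 summits in the mean of the 4 lists, beside 5.36 over all coding genes. Wnt5a was the sparsest, at 2.85 summits per 100 kb and the 29.3 percentile of coding genes. Lef1 was the densest, at 8.88 and the 73.5 percentile.

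After merging, the neighbourhoods held 125 regions, and all 4 lists held 32 of them (25.6%, against 32% of all 74669 regions). A further 51 were held by a single list, 31 of them by stop cassette replicate 2, the longest list. The number of regions ran from 4 at Dkk1 to 22 at Lef1 and Tcf7l1. All lists held 5 of the 28 regions of the ligands and 27 of the 97 regions of the other genes. Away from every annotated start there were 104 regions, and all 4 lists held 18 of them (17.3%, against 18.95% of such regions over the chromosomes). Their median mean percentile was 58.1, beside 61.2.

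**Figure D4:**
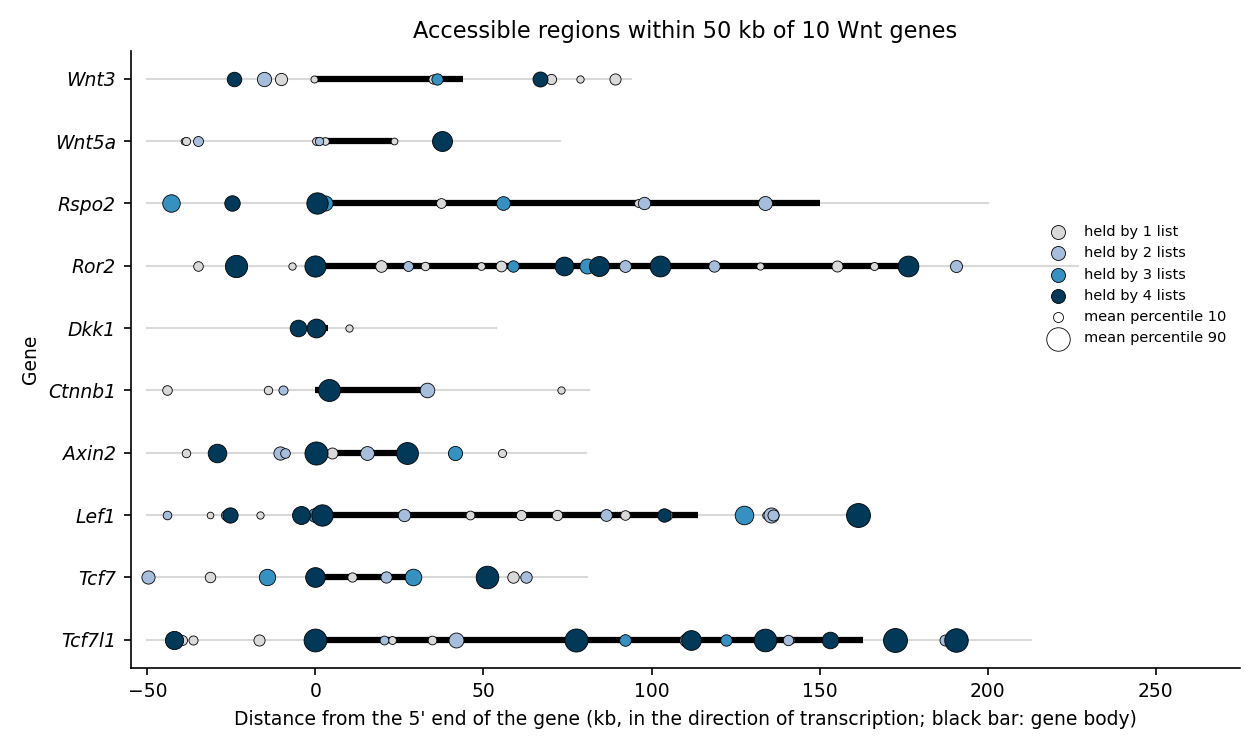
Merged accessible regions within 50 kb of each of the 10 genes, by distance from the 5' end of the gene (horizontal axis, kb, in the direction of transcription), with black bars for gene bodies. Darker points are held by more of the 4 lists and larger points have a higher mean percentile. Tcf7l1 has 8 regions held by all 4 lists, Ror2 6, and Wnt5a and Ctnnb1 1 each.

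The strongest region away from starts that all 4 lists held is given for each gene that had one. At Wnt5a it was the single such region, in intergenic DNA 30836 bp after a Wnt5a start (chr14:29355208-29356005), with percentiles of 36.8 and 86.2 in the stop cassette lists and 64.4 and 63.9 in the wild-type lists. It was far stronger than the Wnt5a start itself in every list. At Wnt3 the region lay in an intron of the neighbouring gene Nsf (chr11:103701792-103702738), with 14.8, 61.6, 31.7 and 20.7. At Rspo2 it lay 24933 bp before the start in intergenic DNA (chr15:43027018-43027764), with 7.55, 66.3, 31.7 and 32.9. In the ligand neighbourhoods stop cassette replicate 2 thus had the highest value at each of these 3 regions and replicate 1 the lowest.

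At Ror2 the region lay 23699 bp before the first start in intergenic DNA (chr13:53404432-53405775), with 62.7 and 91.0 in the stop cassette lists and 80.5 and 85.7 in the wild-type lists. At Axin2 it lay in an intron near the 3' end of the gene (chr11:108808635-108809500), with 61.6, 90.3, 75.5 and 80.3. At Tcf7l1 it lay in an intron (chr6:72661004-72662306), with 77.2, 94.2, 80.5 and 94.4. These 3 regions stood above the 60 percentile in every list, and at none of them did the genotypes separate. At Lef1 the region lay 4270 bp before the first start (chr3:130808837-130809370), with 41.4, 72.6, 39.1 and 43.9. Ctnnb1 and Tcf7 had no such region.

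Dkk1 gave the largest difference between genotypes among these regions. The region lay 5097 bp before the Dkk1 start in intergenic DNA (chr19:30629002-30629523), with percentiles of 69.8 and 75.1 in the stop cassette lists and 16.0 and 5.35 in the wild-type lists. The scores were 10.3 and 10.4 against 3.04 and 2.60. The groups did not overlap, and the means of 72.4 and 10.7 differed by 61.8. The Dkk1 start differed by -3.44, and by -32.6 at equal length. At equal length the region was no longer held by all lists, because the weak summit of wild-type replicate 2 was cut. The summits of both stop cassette lists and of wild-type replicate 1 were kept. The cause was not tested. Such a separation in the same direction occurred at 2 of the 18 shared regions away from starts, the other at Lef1 (chr3:130787426-130788644, means 49.5 and 18.3), beside 36.4% of such regions over the chromosomes. None of the 18 was lower in both stop cassette lists, beside 2.75%. At equal length 10 such regions were left, with 0 higher (beside 21.3%) and 2 lower (beside 16.8%). The Dkk1 and Lef1 regions were not among these 10, since a region that loses its summit in any list drops out of this count.

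At starts, the neighbourhoods held 14 regions present in all lists, those of other genes included. Of these, 3 were higher in both stop cassette lists (beside 40.9% of start regions) and 2 lower (beside 4.02%). The higher ones were the starts of Ror2 and Tcf7 and that of Retsat, a neighbour of Tcf7l1. The lower ones were the start of Wnt9b near Wnt3, with means of 18.2 and 41.2, and the region at the Dkk1 start taken without the later summit of stop cassette replicate 2, with 52.6 and 57.7. At equal length 12 were left, with 1 higher (beside 20.3%) and 4 lower (beside 20.1%).

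The 200 bases around the strongest summit are shown for the Dkk1 region (chr19:30629152-30629351), which separated the genotypes, and for the Wnt5a (chr14:29355373-29355572) and Axin2 (chr11:108808785-108808984) regions, which were open in all lists. All are on the plus strand.

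Dkk1 region: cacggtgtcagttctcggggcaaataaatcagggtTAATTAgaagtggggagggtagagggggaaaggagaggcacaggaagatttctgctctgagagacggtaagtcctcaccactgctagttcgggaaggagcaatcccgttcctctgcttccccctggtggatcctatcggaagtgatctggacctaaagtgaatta

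Wnt5a region: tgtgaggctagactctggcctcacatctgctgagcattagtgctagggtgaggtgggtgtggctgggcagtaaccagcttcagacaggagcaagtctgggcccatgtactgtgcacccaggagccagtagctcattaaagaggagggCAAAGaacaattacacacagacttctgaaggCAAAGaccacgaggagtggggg

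Axin2 region: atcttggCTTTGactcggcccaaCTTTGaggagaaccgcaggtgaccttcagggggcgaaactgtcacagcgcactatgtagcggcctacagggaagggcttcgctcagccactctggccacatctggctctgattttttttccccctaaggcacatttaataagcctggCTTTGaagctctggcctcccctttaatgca

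The Dkk1 window contained TAATTA and none of the TCF/LEF letters, the Wnt5a window CAAAG at 2 places and the Axin2 window CTTTG at 3. Among the 18 windows away from starts, 1 contained CTTTGAT, 11 CTTTG or CAAAG, and 1 TAATTA. Over 10627 such windows of regions held by all lists, 2.88% contained CTTTGAT, 42.7% the shorter word and 5.35% TAATTA. In the 8 windows at starts of the 10 genes, 2 contained CTTTGAT, 4 the shorter word and 0 TAATTA, beside 1.10%, 27.6% and 0.922% of 13237 start windows.

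Regions held by both lists of one genotype and neither list of the other were counted last. In the neighbourhoods 13 of 125 were specific to the stop cassette lists (10.4%, against 10% of all regions) and 1 to the wild-type lists (against 0.313%). At equal length the numbers were 4 and 4 of 81 regions, beside 5.22% and 2.23% of all regions. All 14 lay away from starts. Of these, 3 kept their pattern at equal length, all specific to the stop cassette lists.

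At Wnt3 such a region lay 15256 bp before the start and 9073 bp from a start of Wnt9b, another ligand (chr11:103619958-103620550), with percentiles of 49.1 and 65.3. At Rspo2 it lay in an intron (chr15:42868348-42868851), with 49.1 and 57.7. At Lef1 it lay downstream of the gene in a non-coding exon of the neighbour Hadh (chr3:130948541-130949132), with 74.2 and 56.0. The wild-type region lay in an intron of Erc2 on the 5' side of Wnt5a (chr14:29282809-29283327), with percentiles of 37.6 and 2.30, and did not keep its pattern at equal length. None of these regions was held by a list of the other genotype, and whether it fell below the calling threshold there was not tested.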

How the data were processed

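ATAC-seq summit lists were analysed, 1 per library, so peaks were called per library. The deposited values are −log10 q-like scores: this reading rests on the layout and on the lowest score, which lies just above −log10 of 0.05 in each list. Per the submitters' processing notes, Bowtie2 2.2.6 and Picard were used and the build was mm9; the peak caller, and any shift of reads for the transposase, are not given in the sources used here. Peak names record that duplicates were removed and a mapping quality of 30 was required. Unplaced sequences, at most 0.172% of a list, carried none of the genes compared. Their summits were kept in the list lengths, the percentile ranks, the cut to equal length and the total of 74669 regions. Depth is unknown, so no test on reads was made.

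Scores were ranked as percentiles within a list (share of lower scores, ties at their midpoint). Starts are those of all GENCODE M1 transcripts, and 0 summits lay beyond the ends of the 21 chromosomes compared. Genotypes were compared with exact two-sided permutation tests over the 4 lists, with Benjamini-Hochberg adjustment over 14645 genes (Python 3.11.15, numpy 2.4.6, scipy 1.17.1). The procedures were tested on simulated lists of equal length with planted differences, which does not cover the unequal length of the real lists. The genes, the pathway lists (analysed as fixed, Amer1 under an older symbol, Fzd10 as a pair of identifiers) and the tests were chosen with earlier results of these data known. All 10 genes were named; in each neighbourhood the shared region away from starts with the highest mean percentile, and genotype-specific regions that kept their pattern at equal list length, were named; from each pathway list, up to 3 genes with the highest mean and those held by no list. The Lef1 region at chr3:130787426-130788644, the wild-type region near Wnt5a and the targets named as higher beside Tcf7 were chosen after their values were seen. Sox1 was not among the annotated markers. Alternatives were other distances and extensions, coding transcript starts, equal list length, a common score threshold, a ranking among start summits (for single genes added after the data were seen), pairing of replicate numbers, and leaving out each library.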

Additional observations from a re-analysis of the deposited data

How the results depend on the processing

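The higher start percentile of Tcf7, the higher median start percentile (2.51 to 38.1) and the difference between genotypes in the gap between ligands and other genes (-2.45 to -33.2) kept their direction under all alternatives run. The gap itself did not: over the genes with a summit in all 4 lists, where Rspo2 is the only ligand left, it was -14.3 in the stop cassette and 9.07 in the wild-type lists. Over the settings other than leaving out a library, 59 of 70 differences of single genes kept their sign, whatever their size. Of 39 summaries, 27 kept their sign or, for a count of regions, stayed within 1.5 times. Both counts include pairing by replicate number, which leaves a difference of means unchanged by construction. Differences that kept their sign still moved: that of Dkk1 was -32.6 at equal length and that of Tcf7 69.5 with scores above 5.83. Both wild-type Tcf7 scores were under that threshold and counted as 0. The threshold kept 43678 and 54554 summits of the stop cassette lists and 23148 and 32159 of the wild-type lists, so list length still differed.

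The difference in genes held was 0 at 500 bp, 0 with coding transcript starts, 0 at equal length and 1.5 with scores above 5.83, the pooled median; leaving out a library gave -1.5 to 0.5. The neighbourhood difference was 0.0157 percentage points with scores above 5.83, and leaving out a library gave -0.0252 to 0.00492. Stop cassette-specific regions numbered 8 at 10 kb, 4 at equal length, 8 above 5.83, and 14 to 45 without a library (45 and 23 leaving out stop cassette replicates 1 and 2, and 22 leaving out wild-type replicate 2). Wild type-specific regions numbered 0 at 10 kb, 2 at 100 kb, 4 at equal length, 0 above 5.83, and 1 to 9 without a library (9 and 4 leaving out wild-type replicates 1 and 2, and 6 leaving out stop cassette replicate 2). A list left out relaxes what counts as specific.

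Start differences that changed sign were those of Wnt5a (-2.83 at 2 kb), Dkk1 (5.64) and Tcf7l1 (2.55) above 5.83, Axin2 (-6.42) and Lef1 (-0.916) at equal length, and Axin2 among start summits (-1.13). Without 1 library, Wnt5a ranged from -3.53 to 8.83, Rspo2 from -24.4 to 2.67, Axin2 from -3.74 to 6.73, Lef1 from -0.778 to 17.9 and Tcf7l1 from -8.58 to 6.42. The cause was not tested. With the replicate number as a block the differences are the same by construction (14.2 for the median start percentile). The smallest possible p in an exact sign-flip test is then 0.5. No label says that the numbers pair the lists, and the deviations of same-numbered lists correlated with r = 0.198 over 12860 genes.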
